A study of Mus musculus with 8 samples.

Results

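Reactive astrocytes are sorted by marker genes into 3 classes, and 32 such markers were followed here in primary mouse astrocytes stimulated with TGF-β. The pan-reactive class has 10 genes (LCN2, STEAP4, S1PR3, HSPB1, CXCL10, CD44, OSMR, CP, SERPINA3N, ASPG), the A1 class 10 (H2-T23, SERPING1, H2-D1, GGTA1, IIGP1, GBP2, FKBP5, PSMB8, SRGN, AMIGO2) and the A2 class 12 (CLCF1, TGM1, PTX3, S100A10, SPHK1, CD109, PTGS2, EMP1, SLC10A6, TM4SF1, B3GNT5, CD14). They were picked by name, here as the table spells them and below in the usual mouse spelling, from a table of 13937 genes. It held 31 of the 32, all of which passed the filter on low counts, and Slc10a6 was the one it lacked. Whole-culture RNA was sequenced from C57BL/6 neonatal brain astrocytes that were WT or lacked RGC-32, the product of Rgcc (RGC-32 KO, KO below). The brains were from pups at postnatal day 1 and were freed of meninges, and the adherent cells were grown in serum, shaken to remove loosely attached cells and serum-starved overnight. Cultures were then left as controls or stimulated for 24 h with 10 ng/ml of TGF-β, with 2 libraries called biological replicates in each of the 4 groups. Nothing in the labels says whether replicates were separate litters or cultures, so the p-values measure the spread between these libraries only. In whole cultures, fewer cells of a type and less RNA per cell cannot be told apart.

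Astrocytes respond to injury, inflammation and ischemia by changing their gene expression, and the pan-reactive set gathers genes known to be raised by both systemic inflammation and stroke. A1 markers were described after endotoxin and include many genes that interferons induce, such as those of antigen presentation and of the guanylate-binding and immunity-related GTPases. A2 markers were described after ischemia and include genes of prostaglandin synthesis, sphingosine phosphorylation and cytokine signalling. The division is a descriptive one, and TGF-β is best known in this tissue for driving matrix production and the glial scar.

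Counts on genes ran from 14920561 to 18956038 per library, with a median of 15857266, and the lowest count of any of the 31 members in any library was 45 (Amigo2 in WT TGF-β). Rgcc stood at 5.16 and 5.61 CPM (the count relative to the TMM-normalized library total) in WT control, 11.9 and 23.2 in WT TGF-β, 3.89 and 1.66 in KO control, and 4.29 and 1.72 in KO TGF-β. Every KO library lay below every WT library, but none was at 0. All 10 astrocyte markers checked were present, from at least 166 counts for S100b to at least 18698 for Gfap in each library, and all 12 microglial markers were present too, with at least 121 counts (P2ry12).

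Genes counted as called, up-regulated or down-regulated, when the log2 fold change reached 0.6 in size and the adjusted p lay under 0.05 (edgeR's quasi-likelihood test, Benjamini-Hochberg over 13509 genes). In WT astrocytes TGF-β up-regulated 6 of the 31 members (19.4%, beside 7.72% of all genes tested) and down-regulated 4 (12.9%, beside 5.65%). In KO astrocytes it up-regulated 5 (16.1%, beside 6.61%) and down-regulated 2 (6.45%, beside 4.93%). Without the fold threshold, 7 members were higher and 9 lower at an adjusted p under 0.05 in WT, against 18.6% and 14.3% of all genes, and 8 were higher and 7 lower in KO, against 16.6% and 11.8%. The called members of the A1 and A2 classes differed in direction. Of the A2 members, 4 of 11 were up-regulated in WT (Sphk1, Ptgs2, Emp1, B3gnt5) and 3 of 11 in KO, with 0 down-regulated in either. Of the A1 members, 4 of 10 were down-regulated in WT (Serping1, Iigp1, Gbp2, Amigo2) and 2 of 10 in KO (Gbp2, Amigo2), while Fkbp5 alone was up-regulated, in WT. Of the pan-reactive members, Hspb1 was up-regulated in both genotypes and Cxcl10 in KO, and 0 were down-regulated.

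**Figure D1:**
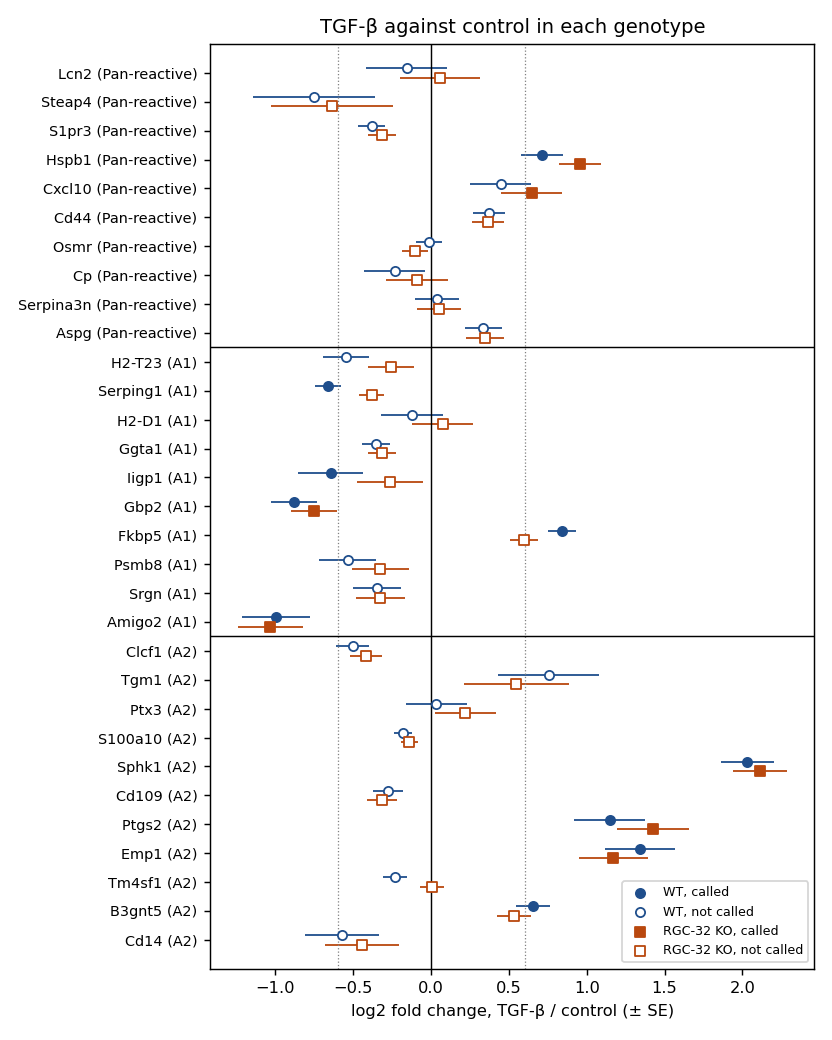
Log2 fold change of TGF-β over control (x axis) for the 31 members tested, in WT (circles) and KO astrocytes (squares). Bars are the standard error, filled symbols are called and dotted lines mark the 0.6 threshold. Sphk1 lies farthest right, at 2.03 and 2.11, and Amigo2 farthest left, at -0.99 and -1.03.

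Members of a class did not all move alike, and class medians also take in the members that were not called. The median log2 fold change over the A1 class was -0.54 in WT and -0.32 in KO, beside -0.0048 and 0.0031 over all genes tested, and 9 of the 10 A1 members were below 0 in WT and 8 in KO. The A2 median was 0.03 in WT and 0.22 in KO, with 6 and 7 of 11 members above 0. The pan-reactive median was 0.01 in WT and 0.06 in KO. A second summary took, in each library, the mean log2 CPM of a class as its difference from the WT control mean. For A1 it was 0.12 and -0.12 in WT control, -0.45 and -0.38 in WT TGF-β, 0.14 and -0.16 in KO control, and -0.28 and -0.32 in KO TGF-β. TGF-β libraries lay below all control libraries in both genotypes. For A2 it was 0.0042 and -0.0042 in WT control, 0.44 and 0.32 in WT TGF-β, -0.09 and 0.04 in KO control, and 0.40 and 0.39 in KO TGF-β, so that the TGF-β libraries were the 4 highest. Not all A2 members shared this rise. In the TGF-β libraries Sphk1 stood at 1.78 to 2.19, Emp1 at 0.945 to 1.62, Ptgs2 at 0.90 to 1.35 and B3gnt5 at 0.51 to 0.68. In WT 4 of 11 lay wholly above controls and 5 wholly below, beside 35.4% and 33.7% of all genes. In KO 5 lay above and 4 below, beside 34.3% and 32.9%. The pan-reactive values ran from -0.08 to 0.31 and overlapped between treatments in both genotypes.

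**Figure D2:**
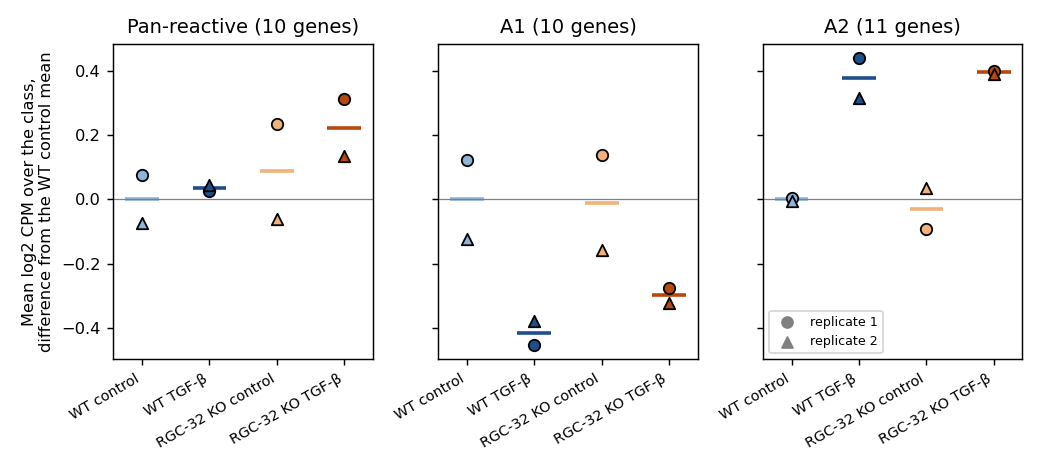
Mean log2 CPM over the members of each class in each library, as the difference from the mean of the WT control libraries (y axis), by group (x axis). Circles are replicate 1, triangles replicate 2 and bars the group mean. The A1 mean was lower and the A2 mean higher in every TGF-β library than in every control library, while the pan-reactive means overlapped.

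**Figure D3:**
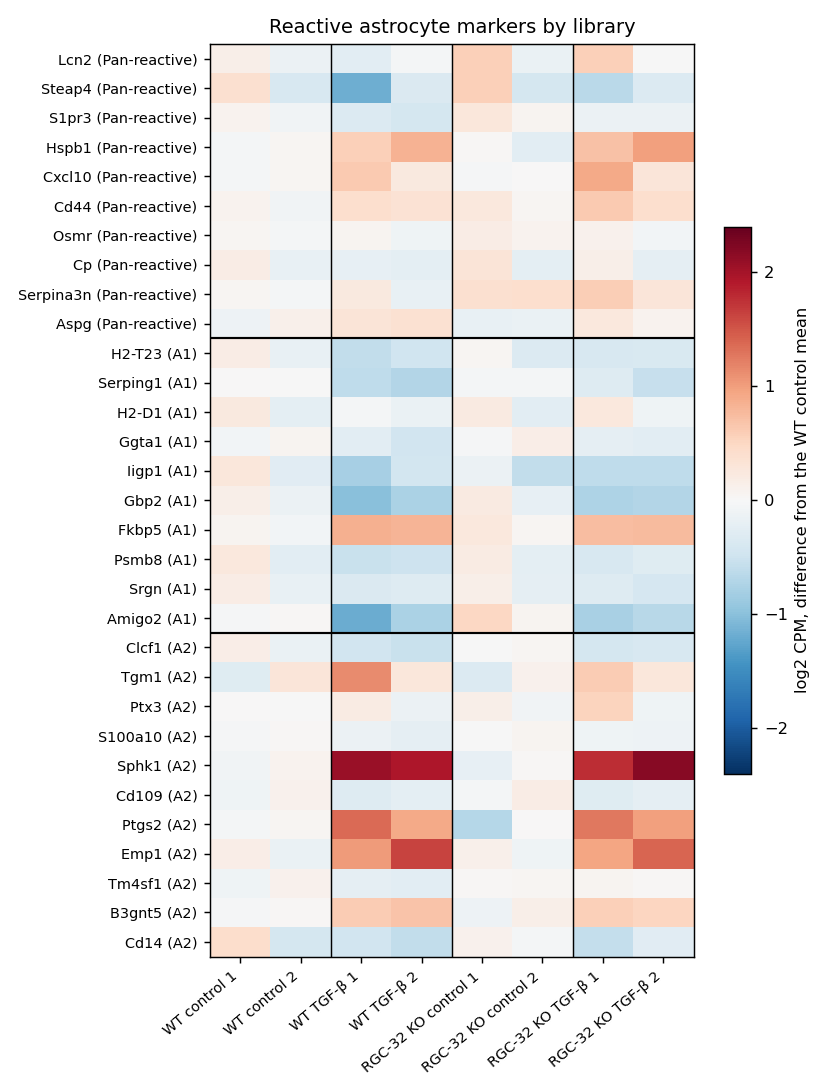
Log2 CPM of each member in each library as the difference from the WT control mean (colour, red higher and blue lower), with the classes separated by horizontal lines and the groups by vertical lines. The strongest red is Sphk1 in the 4 TGF-β libraries, and most A1 rows are blue there apart from Fkbp5.

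The A2 gene with the largest change was Sphk1, the kinase that makes sphingosine-1-phosphate. Its level was 4.51 and 5.07 CPM in WT control, 20.5 and 18.7 in WT TGF-β, 4.15 and 4.85 in KO control, and 16.7 and 22.3 in KO TGF-β. The groups lay far apart, with each TGF-β library over 3 times as high as each control library. The log2 fold change was 2.03 in WT (SE 0.17, adjusted p = 0.000252) and 2.11 in KO (SE 0.17, adjusted p = 0.000279). Ptgs2, the inducible cyclooxygenase of prostaglandin synthesis, stood at 95.8 and 102.4 CPM in WT control, 253.5 and 185.2 in WT TGF-β, 61.4 and 100.1 in KO control, and 238.1 and 196.4 in KO TGF-β. Control and TGF-β libraries did not overlap, and KO control replicate 1 was the lowest of all. It was up-regulated by 1.15 in WT (SE 0.23, adjusted p = 0.00738) and by 1.43 in KO (SE 0.23, adjusted p = 0.0039) on the log2 scale. Emp1, a tetraspan membrane protein of the epithelial membrane protein family, had 180.2 and 144.3 CPM in WT control, 326.1 and 495.8 in WT TGF-β, 175.8 and 150.0 in KO control, and 310.5 and 423.2 in KO TGF-β. Replicate 2 was the lower control and the higher TGF-β library in both genotypes. Its log2 fold change was 1.34 in WT (SE 0.22, adjusted p = 0.00372) and 1.17 in KO (SE 0.22, adjusted p = 0.00752), and the KO call was lost without KO control replicate 2 or KO TGF-β replicate 2 (adjusted p up to 0.0565).

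B3gnt5, a glycosyltransferase that starts lacto-series glycolipids, was the fourth A2 gene up-regulated in WT. It had 11.99 and 12.6 CPM in WT control, 18.9 and 19.8 in WT TGF-β, 11.3 and 13.6 in KO control, and 18.4 and 17.6 in KO TGF-β, with no overlap in either genotype. The log2 fold change was 0.65 in WT (SE 0.11, adjusted p = 0.00362), and 0.53 in KO (SE 0.11, adjusted p = 0.0101), under the fold threshold. The WT call was also lost with upper quartile normalization and on the authors' FPKM values, where the change was as low as 0.37. Promoters are shown for Sphk1 and Emp1, since these A2 genes moved most after TGF-β together with Ptgs2 and their promoters were the only ones of the members with matches to both the AP-1 and STAT motifs. The bases are the 250 before an annotated start, the one with the most matches to these motifs, from RefSeq on GRCm38.p6. They are read 5′ to 3′ on the plus strand at chr11:116531587-116531836 and chr6:135362681-135362930. Both stretches lie inside the annotated genes, which begin at 116530925 and 135362545. Capitals mark TGANTCA, the AP-1 motif, and TTCNNNGAA, the STAT motif.
Sphk1: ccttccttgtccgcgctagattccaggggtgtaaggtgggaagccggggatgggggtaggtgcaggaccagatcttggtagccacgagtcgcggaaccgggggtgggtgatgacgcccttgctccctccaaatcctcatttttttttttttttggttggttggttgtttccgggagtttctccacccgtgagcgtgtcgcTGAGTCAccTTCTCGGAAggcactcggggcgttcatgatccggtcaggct
Emp1: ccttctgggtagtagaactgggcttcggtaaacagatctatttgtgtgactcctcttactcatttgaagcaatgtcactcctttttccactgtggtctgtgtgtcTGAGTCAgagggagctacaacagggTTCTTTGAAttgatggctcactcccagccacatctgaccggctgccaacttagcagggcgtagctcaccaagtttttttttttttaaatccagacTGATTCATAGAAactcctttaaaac
In the Emp1 promoter the downstream AP-1 and STAT matches overlap. The table held 5 starts for Sphk1, of which the one shown and a neighbouring one had these matches, and 2 for Emp1, of which only the one shown had them. Motifs were searched on either strand of the 300 bases from 250 before to 50 after a start. The AP-1 motif was found for 6 of the 26 members with a promoter and in 7.81% of all promoters, and the STAT motif for 5 of 26 and in 8.30%. A member counted if any of its starts matched, and the 26 members had 34 promoters, while the percentages are of individual promoters. Here and for the motifs below, the share of members is therefore raised relative to the percentage, and enrichment was not tested. The others with AP-1 were Cxcl10, Osmr, Cp and Gbp2, which was down-regulated. The others with STAT were Steap4, Psmb8 and Tgm1, which were not called. Ptgs2 had a promoter in the search and matched neither motif. Both are descriptions of letters and not of binding.

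The other 7 A2 members tested were not called in either genotype. Clcf1, a cytokine of the IL-6 family, was lower after TGF-β at an adjusted p under 0.05 but below the fold threshold (log2 fold change -0.50 in WT, SE 0.10, adjusted p = 0.00871, and -0.42 in KO, SE 0.10, adjusted p = 0.0209). S100a10, the annexin A2 partner, had a change of -0.18 in WT and -0.14 in KO (adjusted p = 0.0449 and 0.106). Cd109, a GPI-anchored protein that binds TGF-β receptors, had one of -0.28 in WT and -0.32 in KO (adjusted p = 0.0584 and 0.0425). Tgm1, a transglutaminase, ranged from 4.28 to 6.69 CPM in the 4 control libraries and from 6.54 to 12.1 in the TGF-β libraries. The highest was WT TGF-β replicate 1 at 12.1 CPM, and WT TGF-β replicate 2 at 6.59 lay within the controls (log2 fold change 0.76 in WT, adjusted p = 0.11). Cd14, the lipopolysaccharide co-receptor, had 105.2 and 58.8 CPM in WT control and 57.5 and 52.5 in WT TGF-β, a log2 difference of -0.57 that was not called (SE 0.24, adjusted p = 0.1). Ptx3, a soluble pattern recognition protein, and Tm4sf1, a tetraspanin-like surface protein, had adjusted p from 0.05 to 0.965 in the comparisons with TGF-β. Slc10a6, a steroid sulfate carrier, was listed only among the FPKM values, where it lay between 0 and 0.0309 FPKM in the 8 libraries.

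Among the A1 members, Gbp2, an interferon-inducible guanylate-binding protein, fell in both genotypes. Its level was 179.5 and 148.8 CPM in WT control, 81.9 and 96.7 in WT TGF-β, 190.3 and 143.1 in KO control, and 97.8 and 99.7 in KO TGF-β. Each TGF-β library was below each control library. Its log2 fold change was -0.88 in WT (SE 0.15, adjusted p = 0.00381) and -0.75 in KO (SE 0.15, adjusted p = 0.00834), and the KO call was lost without KO control replicate 1 (log2 fold change -0.55). Amigo2, a leucine-rich adhesion protein, was low throughout, at 5.74 and 5.91 CPM in WT control, 2.49 and 3.39 in WT TGF-β, 8.23 and 6.10 in KO control, and 3.35 and 3.63 in KO TGF-β. Controls and TGF-β libraries did not overlap. It changed by -0.99 in WT (SE 0.22, adjusted p = 0.0111) and by -1.03 in KO (SE 0.21, adjusted p = 0.00995), and either call was lost without TGF-β replicate 1 of that genotype (adjusted p = 0.071 and 0.0646). Serping1, the C1 inhibitor of the complement cascade, had 177.3 and 177.0 CPM in WT control, 115.5 and 108.4 in WT TGF-β, 171.4 and 170.7 in KO control, and 142.4 and 120.2 in KO TGF-β. Its controls were nearly equal, and both TGF-β groups lay below them. It was down-regulated in WT, at -0.66 (SE 0.08, adjusted p = 0.00103), and lower without reaching the fold threshold in KO, at -0.38 (SE 0.08, adjusted p = 0.0113).

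Iigp1, an interferon-inducible immunity-related GTPase, had 34.8 and 24.1 CPM in WT control, 16.5 and 21.2 in WT TGF-β, 26.2 and 19.3 in KO control, and 18.90 and 18.96 in KO TGF-β. The 2 controls of each genotype lay farther apart than the lower of them and the higher TGF-β library. Its call in WT was near the threshold (log2 fold change -0.64, SE 0.21, adjusted p = 0.0477) and was lost in 10 of 21 alternatives, limma-voom and the removal of WT control replicate 1 (log2 fold change -0.36) among them. Fkbp5, a co-chaperone of the glucocorticoid receptor, moved the opposite way, from 20.8 and 18.98 CPM to 36.2 and 34.98 in WT, and from 23.8 and 20.5 to 33.1 and 33.8 in KO. Both TGF-β groups lay above all controls. It was up-regulated in WT, at 0.84 (SE 0.09, adjusted p = 0.000599), and fell just short of the fold threshold in KO, at 0.60 (0.596 unrounded, SE 0.09, adjusted p = 0.0029). On the FPKM values with a pseudocount of 1 its WT change was 0.52 and not called.

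The remaining 5 A1 members were not called. H2-T23, a nonclassical MHC class I molecule, had 65.6 and 51.0 CPM in WT control, 38.4 and 41.4 in WT TGF-β, 60.0 and 46.0 in KO control, and 44.1 and 44.7 in KO TGF-β, so that TGF-β libraries lay below controls. Its log2 fold change was -0.55 in WT (SE 0.15, adjusted p = 0.0253) and -0.26 in KO (SE 0.15, adjusted p = 0.232). Ggta1, which adds alpha-galactose to glycans, changed by -0.35 in WT (adjusted p = 0.0219) and -0.32 in KO (adjusted p = 0.0371), both below the fold threshold. Psmb8, a catalytic subunit of the immunoproteasome, and Srgn, a proteoglycan of secretory granules, had TGF-β libraries below controls in both genotypes with adjusted p of 0.0564 to 0.216. H2-D1, a classical MHC class I heavy chain, overlapped between treatments in both genotypes. Over the class, 8 of 10 A1 members had TGF-β libraries wholly below controls in WT and 8 of 10 in KO. Over all 31 members this was 15 in WT, against 33.7% of all genes, and 13 in KO, against 32.9%, and libraries wholly above controls were seen for 9 members in WT, against 35.4% of all genes, and for 10 in KO, against 34.3%. Reads of H2-D1, H2-T23, Gbp2, Iigp1 and Serpina3n may be shared with near-identical family members, and the program that assigned them is not given in the sources used here.

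**Figure D4:**
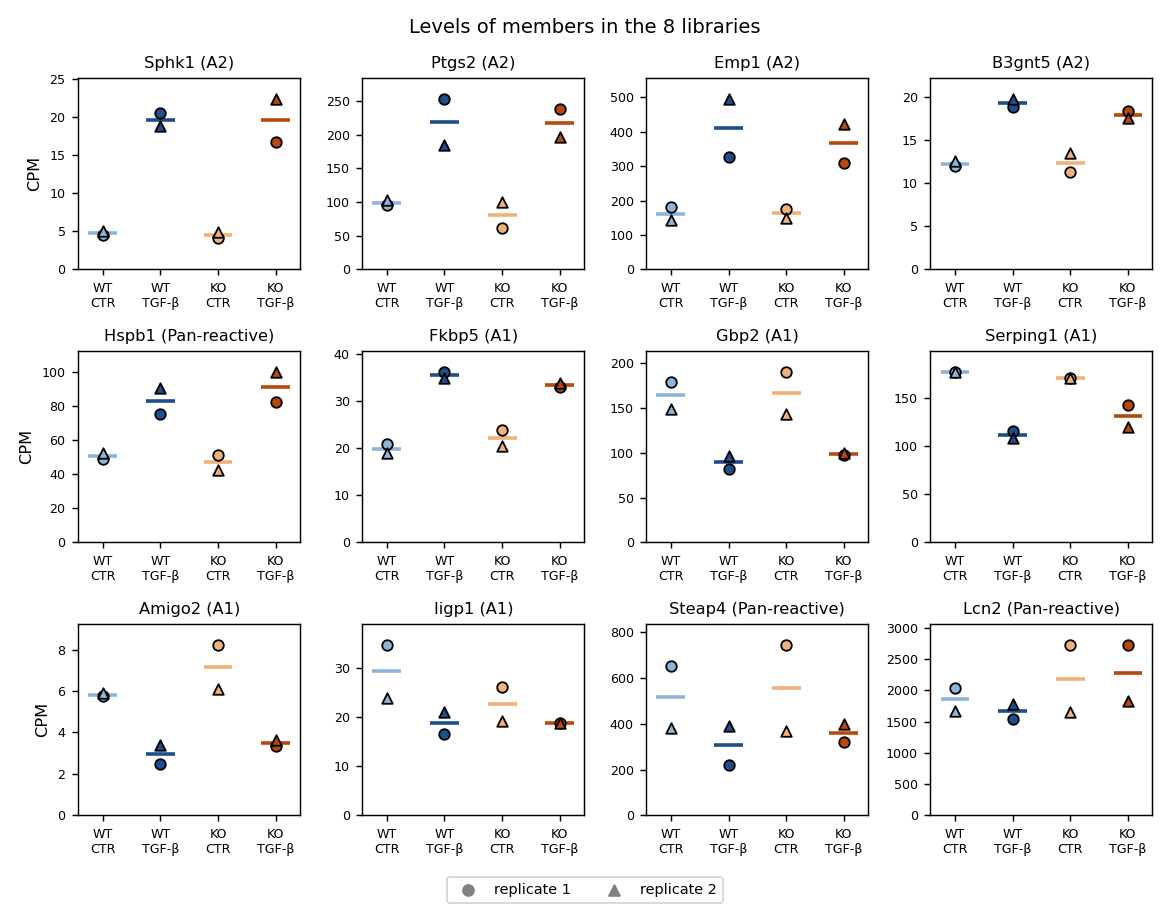
CPM of 12 members in the 8 libraries (y axes start at 0), by group (x axes). Circles are replicate 1, triangles replicate 2 and bars the group mean. Sphk1, Ptgs2, Emp1, B3gnt5, Hspb1 and Fkbp5 were higher and Gbp2, Serping1 and Amigo2 lower in the TGF-β libraries of both genotypes, while Steap4 and Lcn2 overlapped.

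Promoters of Gbp2, H2-T23 and Cxcl10 are shown because they hold the interferon-stimulated response element, searched as GAAA, any 2 bases, GAAA on both strands and marked in capitals. Each is the 250 bases before the start, from RefSeq on GRCm38.p6, read on the gene's own strand at chr3:142620413-142620662 (plus), chr17:36032702-36032951 (minus) and chr5:92348890-92349139 (minus).
Gbp2: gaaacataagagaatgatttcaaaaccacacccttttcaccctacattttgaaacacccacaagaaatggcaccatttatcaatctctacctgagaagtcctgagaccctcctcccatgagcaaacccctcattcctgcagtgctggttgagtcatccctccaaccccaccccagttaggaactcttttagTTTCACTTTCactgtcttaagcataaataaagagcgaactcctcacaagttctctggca
H2-T23: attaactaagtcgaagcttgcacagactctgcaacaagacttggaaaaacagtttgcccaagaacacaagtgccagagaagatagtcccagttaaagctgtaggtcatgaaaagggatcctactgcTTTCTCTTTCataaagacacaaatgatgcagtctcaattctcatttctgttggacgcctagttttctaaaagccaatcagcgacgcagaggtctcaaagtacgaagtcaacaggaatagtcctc
Cxcl10: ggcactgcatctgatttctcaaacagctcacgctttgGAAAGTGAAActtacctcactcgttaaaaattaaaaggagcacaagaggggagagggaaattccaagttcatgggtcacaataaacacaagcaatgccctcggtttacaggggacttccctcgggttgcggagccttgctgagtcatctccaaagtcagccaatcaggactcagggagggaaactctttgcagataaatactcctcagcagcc
The element was found for 3 of the 8 A1 members with a promoter (Gbp2, H2-T23, Srgn), for 1 of 10 pan-reactive members (Cxcl10) and for 2 of 8 A2 members (Tgm1, Tm4sf1), and in 3.44% of all 32851 promoters. Of the members that hold it, Gbp2 was down-regulated while Cxcl10 was up-regulated in KO. A SMAD motif, CAGACA, was found for 8 of 26 members and in 21.0% of all promoters. These counts, too, are of members with a match at any start, beside percentages of individual promoters. The kappaB motif (GGGA, any base, TTTCC) and the CRE motif TGACGTCA were found for 0 members and in 0.411% and 1.79% of all promoters.

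Hspb1, the small heat shock protein HSP27, was the pan-reactive gene up-regulated in both genotypes. It had 48.9 and 52.2 CPM in WT control, 75.3 and 90.7 in WT TGF-β, 51.5 and 42.5 in KO control, and 82.4 and 100 in KO TGF-β. All 4 TGF-β libraries lay above all 4 controls. The log2 fold change was 0.71 in WT (SE 0.13, adjusted p = 0.00565) and 0.96 in KO (SE 0.13, adjusted p = 0.00212), and the WT call was lost without WT TGF-β replicate 2 (0.56). Its promoter is shown because it holds 2 matches to the heat shock motif GAANNTTC, in capitals, in the 250 bases before the start at chr5:135887669-135887918 (plus strand, GRCm38.p6).
Hspb1: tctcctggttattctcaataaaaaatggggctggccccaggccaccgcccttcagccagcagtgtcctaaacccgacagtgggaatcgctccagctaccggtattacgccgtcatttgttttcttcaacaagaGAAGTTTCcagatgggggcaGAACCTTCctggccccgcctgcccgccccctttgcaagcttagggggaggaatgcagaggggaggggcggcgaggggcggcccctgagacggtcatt
This motif was found for 2 of 26 members, Hspb1 and B3gnt5, and in 7.86% of all promoters.

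Cxcl10, a chemokine induced by interferon, had 135.0 and 143.1 CPM in WT control, 215.7 and 163.1 in WT TGF-β, 136.6 and 140.5 in KO control, and 262.4 and 171.1 in KO TGF-β. Controls were alike, and replicate 1 was the higher TGF-β library in both genotypes. The log2 fold change was 0.65 in KO (SE 0.19, adjusted p = 0.0412), a call lost in 9 of 21 alternatives, and 0.45 in WT (SE 0.19, adjusted p = 0.115). Cd44, the hyaluronan receptor, was higher after TGF-β by 0.37 in each genotype (adjusted p = 0.0273 and 0.0313), and S1pr3, a receptor for sphingosine-1-phosphate, was lower by -0.38 in WT and -0.32 in KO (adjusted p = 0.0134 and 0.0306), all below the fold threshold. Aspg, an asparaginase, changed by 0.34 in WT and 0.35 in KO (adjusted p = 0.063 and 0.0667).

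Lcn2, lipocalin 2, is the iron-siderophore binder most used as a reactive marker, and it did not separate the treatments. It had 2039 and 1670 CPM in WT control, 1546 and 1780 in WT TGF-β, 2729 and 1651 in KO control, and 2728 and 1834 in KO TGF-β. Both replicate 1 libraries of KO stood above the other 6, whose range was 1546 to 2039. The log2 fold change was -0.16 in WT (SE 0.26, adjusted p = 0.673) and 0.06 in KO (SE 0.26, adjusted p = 0.883). Osmr, the oncostatin M receptor, Cp, the ferroxidase ceruloplasmin, and Serpina3n, a serine protease inhibitor, had log2 fold changes of -0.23 to 0.05 and adjusted p of 0.393 to 0.912.

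Steap4, a metalloreductase, varied most with the replicate number. It had 652.2 and 381.3 CPM in WT control, 222.0 and 391.3 in WT TGF-β, 745.2 and 370.8 in KO control, and 319.9 and 398.7 in KO TGF-β. Replicate 1 was the higher control and the lower TGF-β library in both genotypes, while the 4 replicate 2 libraries lay between 370.8 and 398.7. Within number 1 the TGF-β library was lower by -1.55 in WT and -1.22 in KO (log2 CPM), and within number 2 the differences were 0.04 and 0.11. With all libraries its log2 fold change was -0.75 in WT (SE 0.39, adjusted p = 0.178) and -0.63 in KO (SE 0.39, adjusted p = 0.26). Several immune members had a like pattern. For Iigp1 the difference was -1.07 within number 1 and -0.18 within number 2 in WT, and -0.47 and -0.03 in KO. For Psmb8 it was -0.80 and -0.23 in WT, and -0.58 and -0.05 in KO, and for H2-T23 -0.77 and -0.30, and -0.44 and -0.04. Gbp2 kept its direction within both numbers, at -1.13 and -0.62 in WT and -0.96 and -0.52 in KO. What the replicate number stands for is not stated. In a fit with the number as a block, Iigp1 in WT was no longer called (adjusted p = 0.0589). In a fit that paired control replicate 1 with TGF-β replicate 2 and the reverse, chosen after seeing the data, Steap4 (adjusted p = 0.00357) and Tgm1 (adjusted p = 0.00602) were called in WT. By contrast, Sphk1 changed by 1.86 to 2.17 and Fkbp5 by 0.47 to 0.88 within each number of each genotype.

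The comparison of genotypes asked whether the loss of RGC-32 alters these markers. No member was called between KO and WT, and 0 were called with DESeq2 or limma-voom as well. In control cultures 0 of 31 were called by edgeR (0.037% of all genes tested), and 1 had an unadjusted p under 0.05, against 6.84% of all genes. With TGF-β 0 were called (0.0444% of all genes), and 4 had an unadjusted p under 0.05, all higher in KO, against 11.7% of all genes. Averaged over both treatments 0 were called (0.126% of all genes), and 3 had an unadjusted p under 0.05, against 15.0% of all genes. These were Serpina3n (log2 difference, KO minus WT, 0.40, SE 0.10, adjusted p = 0.133), S1pr3 (0.21, SE 0.06, adjusted p = 0.187) and Tm4sf1 (0.16, SE 0.05, adjusted p = 0.234). For Tm4sf1 the difference was 0.04 in control (adjusted p = 0.958) and 0.28 with TGF-β (adjusted p = 0.242). Serpina3n had 388.3 and 367.8 CPM in WT control, 443.4 and 333.8 in WT TGF-β, 491.4 and 500.9 in KO control, and 568.2 and 461.0 in KO TGF-β. Each KO library was above each WT library, and over the alternatives the adjusted p ran from 0.00109 to 0.27. The difference was positive for 9 of the 10 pan-reactive members on the mean of both treatments, with a class median of 0.14, beside 0.08 for A1, 0.03 for A2 and -0.0031 for all genes tested. It was wider in replicate 1, where the pan-reactive class mean was 0.075 in WT and 0.235 in KO control, and 0.0261 and 0.311 with TGF-β. In replicate 2 these were -0.075 and -0.0598, and 0.0431 and 0.134. Astrocyte markers lay higher in KO too, with a median of 0.21 over 10 markers, 0 of them called, among them Gfap at 0.51 (SE 0.11, adjusted p = 0.103) and Slc1a3 at 0.29 (SE 0.05, adjusted p = 0.0646). The median over 9 meningeal fibroblast markers was -0.21. The part of these markers in the members' difference was not tested.

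**Figure D5:**
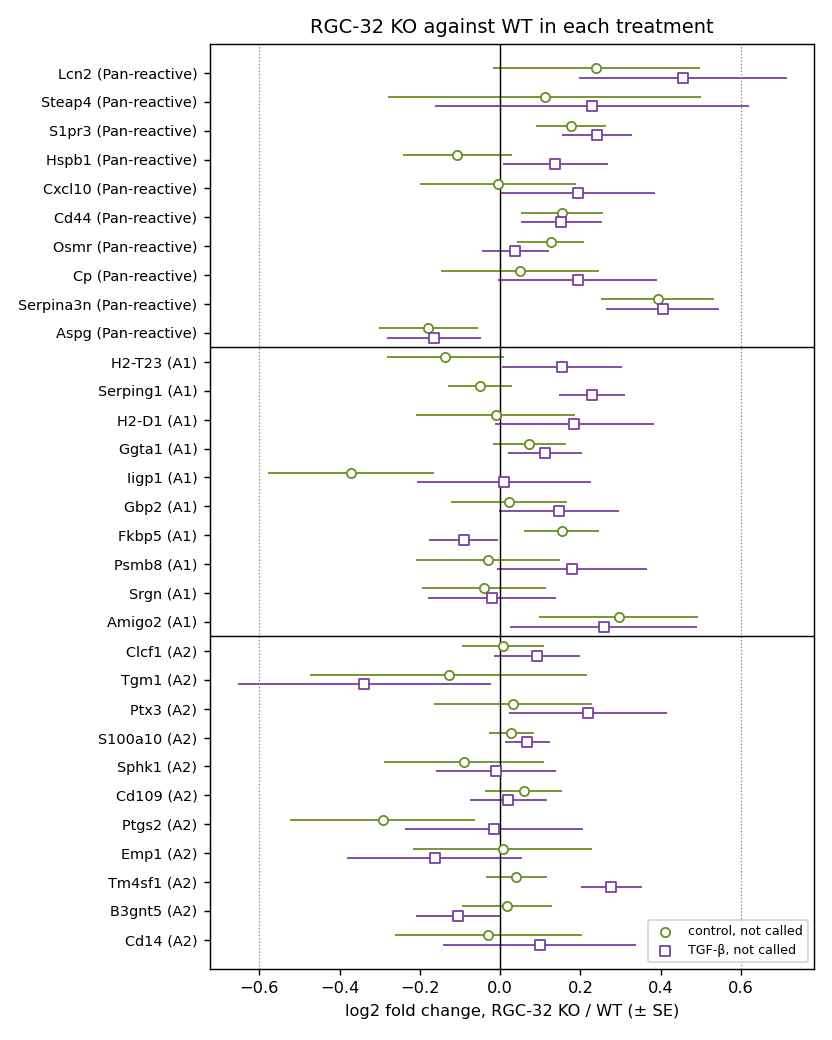
Log2 fold change of KO over WT (x axis) for the 31 members tested, in control (circles) and TGF-β cultures (squares), with the standard error as bars. No member was called (open symbols), and Lcn2 with TGF-β lies farthest right, at 0.46.

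The response to TGF-β was then compared between genotypes as an interaction, KO minus WT. By edgeR 0 members were called (0.0% of all genes tested), as by DESeq2 and limma-voom, and 1 had an unadjusted p under 0.05, against 2.82% of all genes. That member was Serping1, whose decrease was smaller in KO by 0.28 in log2 units (SE 0.11, adjusted p = 1.0). For the members called in 1 genotype alone, the difference was 0.38 for Iigp1 (SE 0.30), -0.24 for Fkbp5 (SE 0.13), -0.12 for B3gnt5 (SE 0.15) and 0.20 for Cxcl10 (SE 0.27). None of these had an unadjusted p under 0.05, so their responses were not shown to differ between genotypes. The standard error of the interaction ran from 0.08 to 0.55 among the members.

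Levels can be set side by side between genes only per transcript length, for which the authors' FPKM values were used. In WT control, Lcn2 was highest among the 32 with a mean of 1752 FPKM, followed by H2-D1 at 394.2, S100a10 at 276.2, Cp at 218.9 and Serpina3n at 173.2. All but S100a10 and H2-D1 among these first 5 are pan-reactive. The lowest apart from Slc10a6 were Tgm1 at 1.60 FPKM, Amigo2 at 1.97, Sphk1 at 2.28, Aspg at 2.46 and B3gnt5 at 2.46. Sphk1 thus changed most from one of the lowest levels, and stayed at or below 8.67 FPKM in every library.

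Other genes of the same pathways were read from lists of their own. Of the published reactive markers outside the 3 classes, 4 of 5 were tested and 2 were up-regulated in both genotypes. Timp1, an inhibitor of metalloproteinases, changed by 2.45 in WT and 2.31 in KO on the log2 scale (adjusted p = 0.00709 and 0.0104), and Fbln5, an elastic fibre protein, by 1.22 and 1.38 (adjusted p = 0.00423 and 0.00315). Gfap and Vim, the intermediate filament genes, were not called, at -0.36 (adjusted p = 0.127) and -0.50 (adjusted p = 0.0081) in WT. Of 12 TGF-β target genes, 8 were up-regulated and 2 down-regulated in each genotype. Pmepa1 changed by 2.63 in WT and 2.65 in KO, Ltbp2 by 2.15 and 2.09, and Ccn2 by 1.75 and 1.87, while Id3 changed by -1.15 and -1.04 and Id1 by -0.80 and -0.76. Of 14 other scar and reactive genes, 5 were up-regulated and 1 down-regulated in each genotype, with the proteoglycans Cspg4 (3.13 in WT, 2.69 in KO) and Vcan (1.95 and 1.67) and the matrix protein Tnc (2.198 and 2.15) up and Lgals3 (-1.09 and -1.01) down. C3, the complement component often read as an A1 marker, was not called (-0.30, adjusted p = 0.274 in WT).

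Of the 9 inducers of the A1 state and their receptors, 0 were called in WT by edgeR and 1, Il1rap, was up-regulated in KO (0.66, adjusted p = 0.0295). In WT Il1rap changed by 0.52 (adjusted p = 0.0576), and it was not called in the interaction. Of 20 genes of cytokine and interferon signalling tested, Lif alone was called, up in both genotypes (2.01 and 2.19, adjusted p = 0.00479 and 0.00436). Among 8 genes of MHC class I and its loading, Psmb9, the neighbouring immunoproteasome subunit of Psmb8, was down-regulated in both (-0.68 and -0.92, adjusted p = 0.0472 and 0.0178). Of 7 glucocorticoid genes, the receptor Nr3c1 among them, listed because Fkbp5 is a target, Sgk1 was up-regulated in both genotypes (1.13 and 1.16) and Zbtb16 in WT (1.07). In KO Zbtb16 changed by 0.28 (adjusted p = 0.552), and it was not called in the interaction. Zbtb16 was near the floor, at 12 and 13 counts in WT control and 24 and 31 in WT TGF-β. The median over the list was 0.007 in WT and -0.128 in KO. Of 9 partners in prostaglandin and sphingosine metabolism, Ptgs1, the constitutive cyclooxygenase, was up-regulated in both (0.67 and 0.70). Anxa2, which binds S100a10, was not called (0.08 in each genotype).

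Markers of other cells moved with TGF-β too, and their part in the members' changes was not tested. The 10 astrocyte markers summed to 4620 to 4847 CPM in WT control and 3585 to 3705 in WT TGF-β, and to 5342 to 6005 and 4384 to 4716 in KO, with 2 of 10 down-regulated in each genotype (Slc1a2 and Glul). For the 12 microglial markers the sums were 1575 to 1884 and 1469 to 1898 CPM in WT, and 1731 to 1872 and 1538 to 1722 in KO, with 1 of 12, Tmem119, up-regulated in each. For the 10 meningeal fibroblast markers that had counts they were 5680 to 7077 and 10470 to 11850 in WT, and 4862 to 5129 and 8187 to 8238 in KO. Of the 9 tested, the collagens Col1a1 and Col1a2 were up-regulated and 2 were down-regulated in each genotype, Pdgfra among them. These collagens carried most of the higher sum (mean CPM in WT 1696 to 4217 and 1561 to 3301), and Col1a1 is also in the list of TGF-β target genes. Mean CPM was also higher for Col3a1, Igf2 and Aebp1, and lower for Dcn (319.1 to 207.7 in WT), Lum, Ptgds and Slc6a13. For 6 endothelial markers the sums were 103.9 to 128.9 and 74.7 to 78.6 in WT, and for 9 ependymal markers 396.3 to 457.4 and 252.2 to 281.5, with 6 of 9 down-regulated in WT and 3 of 9 in KO. The 6 neuronal markers that had counts summed to 305.5 to 316.4 and 378.4 to 397.1 in WT, with Tubb3 alone called of the 5 tested, and the 8 markers of the oligodendrocyte lineage to 379.2 to 390.7 and 543.6 to 624.6. That higher sum was carried by Cspg4, also listed above among the scar genes. The other 7 lineage markers summed to 352.2 to 353.8 and 286.4 to 322.9 CPM in WT, where Cnp and Pdgfra were down-regulated, and to 365.7 to 376.2 and 312.8 to 365.9 in KO. None of the tested markers of microglia or ependymal cells was at 0 in any library.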

How the data were processed

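RNA of 8 libraries was measured by bulk RNA sequencing. The authors aligned unstranded reads with STAR in the VIPER pipeline, on mm10 by the submitters' processing notes, and deposited raw read counts, 1 whole number for each gene and library. The counting program and annotation are not given in the sources used here. The authors also deposited FPKM values per gene from Cufflinks, a unit inferred from the tool and the values. Deposited tables of the authors' own comparisons hold a log2 fold change, a p-value and an adjusted p-value per gene and were not used. In this table of counts, 21 gene names had become dates and 1 name was repeated.

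Counts were filtered with filterByExpr, scaled by TMM and fitted in R 4.3.3 with edgeR 4.0.16 as 1 quasi-likelihood model of 4 group means over 8 libraries, with two-sided p-values adjusted over 13509 genes by the Benjamini-Hochberg method. Calls needed 0.6 or more in log2 fold change, up or down, with adjusted p under 0.05. The SE of each fold change was computed from its F statistic, and a prior count of 2 entered log2 CPM. Alternatives were DESeq2 1.42.0, limma 3.58.1 (voom), other normalizations, filters and thresholds, the replicate number as a block, FPKM with pseudocounts of 1 or 0.1, and each library left out in turn. The procedure was tested on simulated counts drawn independently for each library, so that test does not cover deviations shared by same-numbered libraries. Promoters came from RefSeq (GRCm38.p6), which matched 26 of 32 members. Replicates of each group differed by more than counting noise (chi-square per degree of freedom 6.37 to 10.5).

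The members, lists and tests were chosen with earlier results of these data known. The genes named are all members, Rgcc, and at most 4 called members of each other list, by their change in WT. A list member that the rule also names is not reported here. Gfap, Vim, C3, S100b, P2ry12, Id1, Id3, Lgals3 and Anxa2, and the members of cell type lists, were named after their values were seen.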

Additional observations from a re-analysis of the deposited data

How the results depend on the processing

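The calls of Sphk1 and Ptgs2 in both genotypes, of Emp1, Gbp2 and Serping1 in WT and of Hspb1 in RGC-32 KO held in all 21 alternatives, and 0 members were called between genotypes or in the interaction under any alternative run. Bonferroni's correction left 1 member up-regulated and 0 down-regulated in each genotype, an A2 gene, with 0 pan-reactive and 0 A1 calls. With no fold threshold 7 members were up in WT (2 pan-reactive, 1 A1, 4 A2) and 9 down (1 pan-reactive, 6 A1, 2 A2). In RGC-32 KO 8 were up (3 pan-reactive, 1 A1, 4 A2) and 7 down (1 pan-reactive, 4 A1, 2 A2). With limma-voom 1 A1 member, Fkbp5, was up-regulated in RGC-32 KO.

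Upper quartile normalization moved the median of all genes to -0.0905 in WT and to -0.0798 in RGC-32 KO. It turned the split of all calls from 1043 up and 763 down to 857 and 1055 in WT, and from 893 and 666 to 747 and 895 in RGC-32 KO. The A2 median was then -0.0508 in WT and 0.139 in RGC-32 KO, and 1 pan-reactive member was up-regulated in RGC-32 KO. On FPKM the median of all genes was as low as -0.134, over the genes with FPKM values. With pseudocounts of 1 or 0.1, 7 members were down-regulated in WT. In all 3 FPKM settings 1 A2 member was down-regulated in WT and 1 pan-reactive member up-regulated in RGC-32 KO, and with a pseudocount of 1, filtered or not, 0 A1 members were up-regulated in WT. The pan-reactive median became -0.172 (pseudocount 0.1) and -0.169 (1, filtered or not) in WT, and -0.114 and -0.113 in RGC-32 KO. The A2 median became -0.134, -0.132 and, unfiltered, -0.0753 in WT, and 0.0582, 0.0578 and 0.0354 in RGC-32 KO.

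Directions that turned belonged to members near 0. With upper quartile normalization and FPKM (pseudocount 1, then 0.1) the log2 fold change was -0.0221, -0.107 and -0.107 for Lcn2, -0.0297, -0.12 and -0.12 for Serpina3n, -0.00801, -0.185 and -0.186 for H2-D1, and -0.0778, -0.133 and -0.135 for Tm4sf1 in RGC-32 KO, and -0.045, -0.167 and -0.168 for Serpina3n and -0.0508, -0.132 and -0.134 for Ptx3 in WT. Tm4sf1 in RGC-32 KO was also -0.00395 with DESeq2, -0.00392 with RLE, -0.013 with at least 10 counts in every library, and -0.00531 on the 4 libraries of the comparison, with or without a block. The cause was not tested.

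Leaving out each library in turn, members down-regulated numbered 2 to 8 in WT and 1 to 2 in RGC-32 KO, with 2 to 6 and 1 to 2 in A1, and 0 to 2 A2 members were down-regulated in WT. Counts up-regulated were 0 to 1 (WT) and 1 to 2 (RGC-32 KO) in the pan-reactive class and 0 to 1 in A1 in RGC-32 KO. The WT count of 8 came without WT control replicate 2, and that of 2 without WT TGF-β replicate 1. Class medians ran from -0.709 to -0.355 (A1, WT), -0.454 to -0.135 (A1, RGC-32 KO), -0.137 to 0.175 (A2, WT), -0.0163 to 0.485 (A2, RGC-32 KO), -0.0742 to 0.133 (pan-reactive, WT) and -0.145 to 0.252 (pan-reactive, RGC-32 KO). Members that turned were Cp (-0.335 to 0.184), H2-D1 (-0.144 to 0.31), Lcn2 (-0.259 to 0.449), Ptx3 (-0.136 to 0.485), Serpina3n (-0.106 to 0.174) and Tm4sf1 (-0.0219 to 0.0145) in RGC-32 KO, and H2-D1 (-0.357 to 0.133), Osmr (-0.0957 to 0.0521), Ptx3 (-0.137 to 0.175) and Serpina3n (-0.173 to 0.214) in WT.

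Same-numbered libraries deviated together between genotypes, with correlations across genes of 0.491 (controls) and 0.253 (TGF-β), or 0.72 and 0.576 over the 31 members. Between treatments they deviated oppositely across genes, at -0.343 (WT) and -0.348 (RGC-32 KO). Over the 31 members these correlations were -0.52 in WT and only -0.101 in RGC-32 KO. The labels do not tie the number to a shared source. With it as a block, members up- and down-regulated numbered 6 and 3 in WT and 5 and 2 in RGC-32 KO, and 957 and 659 of all genes were called in WT and 814 and 555 in RGC-32 KO. A crossed pairing of treatments, added after seeing the data, gave 7 and 5 members in WT (1 pan-reactive down, Steap4) and 5 and 2 in RGC-32 KO. Each member had at least 45 counts in every library, and no lower depth was tried.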
